A study of Homo sapiens with 8 samples.

Results

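HP1b was compared with HP1a in wild-type MCF10A cells through 4 ChIP-seq peak lists, 2 of HP1a (replicates 1 and 2) and 2 of HP1b (replicates 1 and 2), out of 8 in the series. Every peak that these lists place on chromosomes 1 to 22 was taken, which gave 688628 peaks of the 1157865 in all 8 lists: 127402 and 109345 of HP1a, and 225115 and 226766 of HP1b. MCF10A is an established, non-tumorigenic line of human breast epithelial cells with a basal character. All 4 libraries came from cells labelled WT for genotype and None for treatment, cross-linked with 1.2% formaldehyde and sequenced as 76 bp read pairs. The groups differ in the protein precipitated and, as given below, in the names of their library sets. The series as a whole concerns genome organisation after loss of HP1 proteins; its remaining 4 lists are from knockdown cells and enter here only in an alternative fit.

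HP1a (HP1α, the product of CBX5) and HP1b (HP1β, the product of CBX1) are paralogs of the heterochromatin protein 1 family, of which HP1γ (CBX3) is the other human member. Each has a chromodomain that binds a methylated lysine on the tail of histone H3 and a chromoshadow domain through which the proteins pair with themselves and with each other, so sites held by both are known from many cell types. Clusters of zinc finger genes on chromosome 19 are a known site of this chromatin, and HP1a is known for pericentromeric heterochromatin. Antibody and library set cannot be told apart from the protein here: the HP1a libraries carry names of one set and the HP1b libraries names of others. The replicates are not stated to be separate cultures, so a p-value measures only the spread between these libraries, which may be technical.

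The promoters that the peaks met give a view of the DNA involved. A promoter window ran from 250 bases before to 50 bases after a RefSeq gene start (GRCh38.p14), and 21041 windows of 15004 genes were examined. Peaks of all 4 libraries met 8 windows (0.038%), peaks of both HP1b and no HP1a library met 99 (0.471%), and peaks of both HP1a and no HP1b library met 14 (0.0665%). The median number of CG dinucleotides was 21 over all windows, 2.5 in the 8 shared windows, 6 in the HP1b windows and 2 in the HP1a windows. The windows below are shown because they go from few to many CG, not as typical of their class, and CG is in capitals. The motif CG reads the same on both strands and is held by 98.0% of all windows, so its number and not its presence differs. The sequences are RefSeq's, written 5′ to 3′ along the gene.
SH2D1B promoter, chr1:162412087-162412386, minus strand: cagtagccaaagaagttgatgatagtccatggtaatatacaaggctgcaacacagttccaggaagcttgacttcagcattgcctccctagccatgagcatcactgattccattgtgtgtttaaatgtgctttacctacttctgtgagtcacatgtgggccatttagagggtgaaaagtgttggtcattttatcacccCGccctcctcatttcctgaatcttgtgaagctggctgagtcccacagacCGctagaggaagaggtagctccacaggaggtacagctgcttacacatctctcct
FCMR promoter, chr1:206923147-206923446, minus strand: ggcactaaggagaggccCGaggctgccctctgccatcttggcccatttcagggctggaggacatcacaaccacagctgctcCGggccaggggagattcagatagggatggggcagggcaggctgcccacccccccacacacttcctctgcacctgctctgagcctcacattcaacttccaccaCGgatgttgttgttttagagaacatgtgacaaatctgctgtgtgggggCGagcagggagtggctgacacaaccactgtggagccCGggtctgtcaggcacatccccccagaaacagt
RIPOR2 promoter, chr6:24877221-24877520, minus strand: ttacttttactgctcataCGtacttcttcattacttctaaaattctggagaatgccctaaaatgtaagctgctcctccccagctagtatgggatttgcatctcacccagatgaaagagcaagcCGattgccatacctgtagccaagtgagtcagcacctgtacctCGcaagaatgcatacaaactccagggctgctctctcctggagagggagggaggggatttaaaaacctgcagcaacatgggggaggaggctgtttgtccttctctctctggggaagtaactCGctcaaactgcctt
SLC25A4 promoter, chr4:185143016-185143315, plus strand: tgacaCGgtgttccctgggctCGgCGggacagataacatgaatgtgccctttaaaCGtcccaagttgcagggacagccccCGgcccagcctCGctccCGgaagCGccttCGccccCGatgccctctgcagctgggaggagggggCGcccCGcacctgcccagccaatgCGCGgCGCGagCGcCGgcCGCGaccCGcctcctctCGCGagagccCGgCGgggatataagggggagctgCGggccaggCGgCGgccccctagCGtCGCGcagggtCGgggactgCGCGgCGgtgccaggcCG
CCT8L2 promoter, chr22:16592761-16593060, minus strand: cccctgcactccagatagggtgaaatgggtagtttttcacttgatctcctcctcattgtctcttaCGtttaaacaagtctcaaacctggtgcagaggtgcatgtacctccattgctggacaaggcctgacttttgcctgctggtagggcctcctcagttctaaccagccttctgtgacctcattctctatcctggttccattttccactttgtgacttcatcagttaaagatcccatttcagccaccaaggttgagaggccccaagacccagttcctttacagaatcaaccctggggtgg

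SH2D1B encodes an adaptor protein of natural killer cells, and FCMR encodes the receptor for the Fc part of IgM. Their windows hold 2 and 5 CG and were the best covered of the 8 met in all 4 libraries. Peaks covered 92.3 and 100% of the SH2D1B window in HP1a and 100 and 100% in HP1b. The RIPOR2 window (4 CG) was covered whole in both HP1b libraries and in neither HP1a library, with a fold enrichment, given by the authors for each peak, of 3.64 and 3.32. SLC25A4, the gene of a mitochondrial ADP/ATP carrier, has the best covered HP1b window in the most CG-rich of 5 equal groups of promoters. That group held only 3 of the 99 HP1b windows, so SLC25A4 does not stand for them. The SLC25A4 window holds 36 CG and was covered whole at folds of 2.85 and 2.94. CCT8L2 has the best covered of the windows met by HP1a only, with 1 CG, and was covered to 100 and 60.0% in HP1a. Of the 8 shared windows, 6 lie on the distal part of chromosome 1. They are those of SH2D1B and FCMR, and those of S100A7, CRNN, SPRR5 and LELP1, genes of the epidermal differentiation complex. These 6 were singled out after their values were seen. The complex is not particular to the shared windows: LCE3A, LCE3E, SPRR3 and LCE4A were among the 14 HP1a windows. The distal parts of chromosomes 1, 5 and 8 described below held 7.75% of all windows, 21.2% of the HP1b windows and 35.7% of the HP1a windows.

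Windows poor in CG were met most often by both proteins, and the share fell with CG number in every library. The windows were divided into 5 equal groups by CG number. In the group with the fewest CG (0 to 5), HP1a met 4.49 and 3.61% and HP1b 7.34 and 8.51%. In the group with the most (34 to 69), HP1a met 0.261 and 0.0475% and HP1b 0.547 and 0.737%. HP1b met more windows than HP1a in every group, without overlap between the proteins, but by unequal factors. From the fewest to the most CG, the ratio of HP1b to HP1a was 1.96, 1.90, 4.58, 5.70 and 4.15. When only the strongest 109345 peaks of each library were kept, the ratios were 0.908, 0.906, 2.51, 4.31 and 2.13. At equal list length, then, HP1b was above HP1a in the 3 groups of higher CG number and below it in the other 2 groups, where the libraries overlapped. The counts in those windows are small: with 25 to 34 CG, at equal length, 13 and 3 windows were met in the HP1a libraries and 32 and 37 in the HP1b libraries. Over all windows the shares were 1.77 and 1.20% for HP1a and 3.08 and 3.79% for HP1b. The exact permutation p was 0.333 for all windows and for each group with lists of full length, the smallest that 2 against 2 libraries can give (two-sided).

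HP1b peaks were more numerous, wider and weaker than HP1a peaks. The HP1b lists covered 148.8 and 148.6 Mb of the autosomes (5.18 and 5.17% of the 2873 Mb spanned), and the HP1a lists 66.5 and 57.3 Mb (2.32 and 1.99%). The ratio of means was 2.40 for covered bases and 1.91 for peak number. Median peak width was 444 and 450 bases in HP1a and 533 and 531 bases in HP1b. Peaks of at least 4 kb numbered 46 and 37 in HP1a and 490 and 444 in HP1b (11.3-fold). The proteins did not overlap in any of these measures, and the exact permutation p of each was 0.333.

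The surplus of HP1b peaks was in the weak peaks. The strength of a peak is the −log10 p that the authors' peak caller gave, and the lists stop at different points, at 2.75 and 2.80 for HP1a and at 2.55 and 2.54 for HP1b. Below a −log10 p of 3 there were 4019 and 2926 HP1a peaks and 67798 and 35853 HP1b peaks, 14.9-fold more. Between 3 and 4 there were 81762 and 73742 against 130553 and 152468 (1.82-fold). From 4 upwards the libraries of both proteins overlapped: 41621 and 32677 HP1a peaks against 26764 and 38445 HP1b peaks, a ratio of 0.878 (exact permutation p 0.667). Among peaks of 6 and over there were 1548 and 1116 in HP1a and 747 and 1368 in HP1b. Median fold enrichment was 3.28 and 3.25 in HP1a and 2.92 and 3.03 in HP1b. HP1b peaks stayed wider at equal number, 439 and 450 bases against 535 and 533, and then covered 57.3 and 57.3 Mb in HP1a and 77.3 and 76.5 Mb in HP1b. Read depth is unknown, because the lists hold no counts, and its part in the number of weak peaks was not tested.

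**Figure D1:**
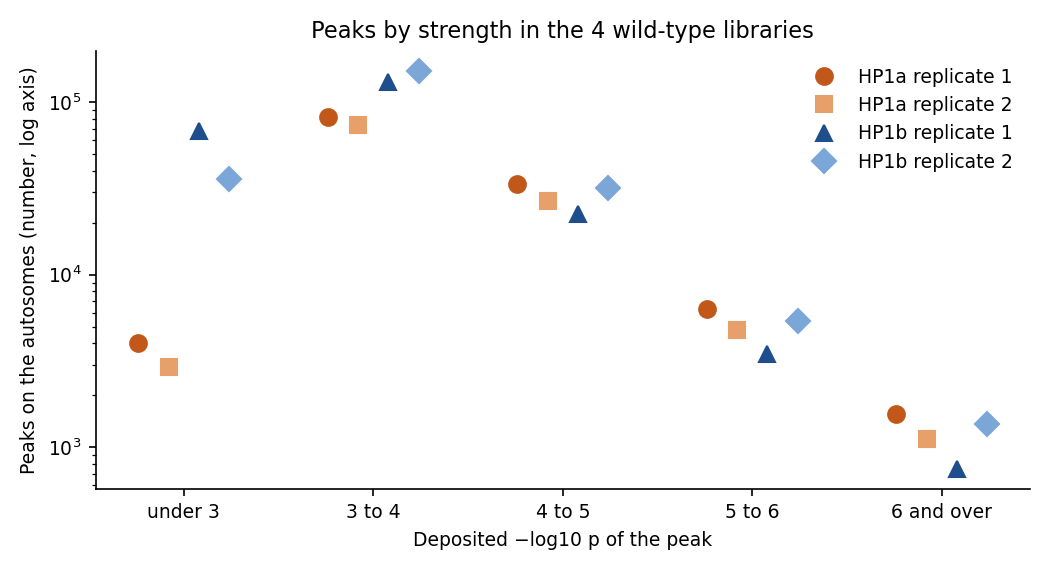
Number of autosomal peaks (log axis) by deposited −log10 p in each of the 4 wild-type libraries, 1 point per library. HP1b points lie above HP1a points below 4, most of all below 3 (67798 and 35853 against 4019 and 2926), and the proteins intermix from 4 upwards.

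At equal list length, peaks of one protein met peaks of the other somewhat more often than HP1a replicates met each other and less often than HP1b replicates did. HP1a peaks met an HP1b peak (by at least 1 base) in 33.4 to 37.3% of cases over the 4 pairs of libraries, and HP1b peaks met an HP1a peak in 16.8 to 19.3%. Peaks of an HP1a replicate met the other HP1a replicate in 18.4 and 21.5%, and those of an HP1b replicate met the other in 35.0 and 34.9%. These shares of whole lists follow the length of the list that is met. Divided by the share of the autosomes that the other list covers, the share of bases met was 4.85 to 5.53 between the proteins, 6.32 and 6.32 within HP1a and 5.06 and 5.06 within HP1b. With 109345 peaks in every library, HP1a peaks met HP1b peaks in 20.7 to 22.1%, HP1a replicates met each other in 18.6 and 18.6%, and HP1b replicates in 26 and 26.2%. An HP1a library was thus met by HP1b, at equal list length, slightly more often than by its own replicate, with HP1b lists that cover more bases. Per share of the autosomes covered, the bases met were then 6.43 to 6.96 between the proteins, 6.44 within HP1a and 8.80 within HP1b. Pairs share libraries, so no test was made of these shares.

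Regions found in both replicates of a protein give the most repeatable set. There were 23089 such HP1a regions and 76047 such HP1b regions. Both HP1b libraries met 42.7% of the HP1a regions, 1 of them met 33.4% and neither met 23.8% (5505 regions). Both HP1a libraries met 15.5% of the HP1b regions, 1 met 34.5% and neither met 50% (38027 regions). At equal peak number both libraries of the other protein met 26% of HP1a regions and 22.6% of HP1b regions. Strong regions were shared more often than weak ones. Regions were divided into 10 equal groups by fold in the weaker replicate. The lowest group of HP1a regions was met by both HP1b libraries in 29.8% of cases and the highest in 66.6%, and for HP1b regions met by both HP1a libraries these shares were 13 and 30.2%. The share rose from group to group throughout for HP1a. For HP1b it dipped to 9.11% above the lowest group and was uneven below the middle.

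**Figure D2:**
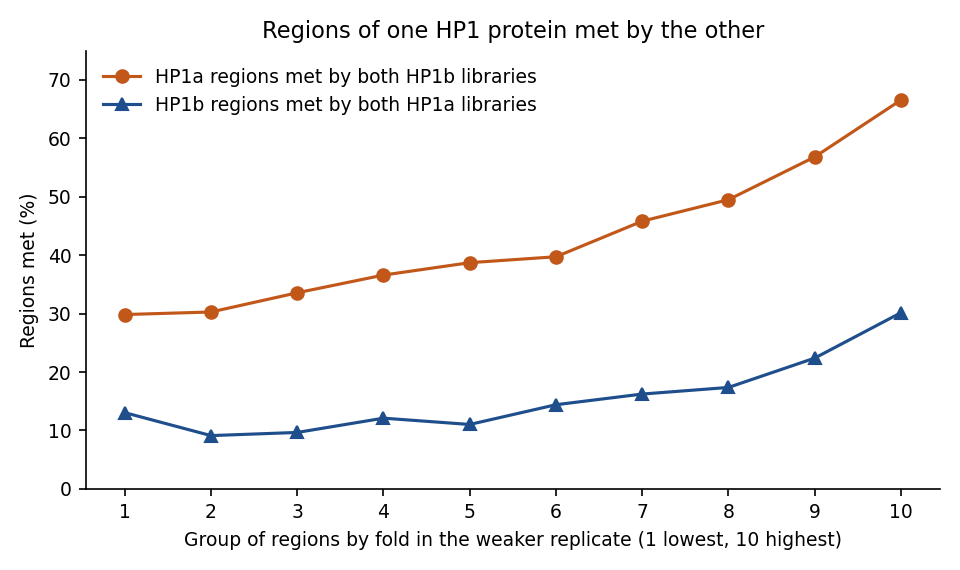
Share of regions (%) met by both libraries of the other protein, against 10 equal groups of regions by deposited fold in the weaker replicate, with HP1a regions as circles and HP1b regions as triangles. HP1a regions go from 29.8 to 66.6% and HP1b regions from 13 to 30.2%.

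Shared and unshared regions differed in place as well as in strength. Chromosome 19 held 6.57% of the HP1a regions met by both HP1b libraries and 0.963% of those met by neither. It held 6.23% of the HP1b regions met by both HP1a libraries and 3.39% of those met by neither. Gene bodies held 35.2% of the bases of the HP1a regions met by both and 42.7% of those met by neither. For HP1b regions these shares were 35.2 and 36.7%. The distal parts of chromosomes 1, 5 and 8 described below held 31.3% of the HP1b regions met by both HP1a libraries and 8.01% of those met by neither, and 33.7 and 22.7% of the HP1a regions. The median length was 1088 bases for HP1a regions met by both and 711 for those met by neither, so longer regions also had more room to be met. Both lists were also denser in these places. HP1b covered 10.4 and 10.7% of chromosome 19, against 5.18 and 5.17% of the autosomes. The part of that density in the shares of regions met was not tested.

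The regions of highest fold in each class lie in unlike places (hg38). Distances are to protein-coding genes, and other kinds of gene were not examined. The strongest shared region is chr21:8408966-8409146, on the short arm of an acrocentric chromosome and 579 kb from the nearest protein-coding gene. Its folds were 7.58 and 6.82 in HP1a and 6.79 and 6.08 in HP1b. The next are chr9:105223755-105223950, which is 20.7 kb from SLC44A1, a choline transporter gene, and chr1:180734130-180734897 inside XPR1, a phosphate exporter gene. The 3 strongest regions of HP1a alone are 158 kb from MSRB3 (chr12:65624707-65624871, folds 6.21 and 5.92), 54.8 kb from ST18 (chromosome 8) and 17.9 kb from TENM2 (chromosome 5). The 3 strongest of HP1b alone are in ZNF678 (chr1:227659357-227659611, folds 5.87 and 5.16), PRIM2, which encodes a primase subunit (folds 5.04 and 5.29), and ZNF354B (folds 4.80 and 4.85). These few do not stand for their classes: gene bodies held 42.7% of the bases of all HP1a regions met by neither HP1b library and 36.7% of those of all HP1b regions met by neither HP1a library. A region missing from a list does not show that the protein was absent there. Repeated sequence was not examined in any of these regions.

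HP1b took a larger share of its bases on chromosome 19 than HP1a did, and HP1a took a larger share on chromosomes 1, 5 and 8. Chromosome 19 held 3.04 and 3.12% of HP1a peak bases and 4.09 and 4.21% of HP1b peak bases, against 2.04% of the autosomes' length. Chromosome 1 held 15.2 and 14.1% of HP1a and 9.70 and 10.8% of HP1b peak bases, against 8.66% of the length. The libraries of both proteins were apart on both chromosomes, in opposite directions. On log2 of the share, HP1b minus HP1a was 0.43 ± 0.03 (SE) for chromosome 19 (limma adjusted p 0.00332) and -0.52 ± 0.07 for chromosome 1 (limma adjusted p 0.00707). Of 22 autosomes, 12 (54.5%) passed an adjusted p of 0.05 with HP1b higher and 3 (13.6%) with HP1a higher. After chromosome 19 the HP1b share was highest relative to HP1a on chromosome 16 (0.35), chromosome 22 (0.34) and chromosome 17 (0.28), and the HP1a chromosomes besides 1 were 5 (-0.32) and 8 (-0.22). Shares sum to a whole, so a lower HP1b share on 3 long chromosomes raises the others, and this bears on the count of 12. Without HP1b replicate 1, 4 autosomes passed with HP1b higher and 3 with HP1a higher.

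The excess of HP1a on those 3 chromosomes lay in their distal parts. Peak coverage of both proteins stepped up near 150 Mb on chromosome 1, 120 Mb on chromosome 5 and 100 Mb on chromosome 8, and relative to the other autosomal bases the mean coverage from there to the chromosome's end was raised more for HP1a. The rise was not even: 10 to 15 Mb into the stretch on chromosome 8, coverage was 1.26 and 1.04% for HP1a and 1.63 and 1.61% for HP1b, below that of the autosomes outside. These 3 stretches, called distal blocks here, were chosen after the data were seen. HP1a covered 7.11 and 5.60% of the blocks and 1.95 and 1.72% of the other autosomal bases. HP1b covered 8.81 and 10% of the blocks and 4.90 and 4.80% of the rest. Coverage in the blocks was therefore 3.66 and 3.27 times that elsewhere for HP1a and 1.8 and 2.09 times for HP1b. The ratio of HP1b to HP1a coverage was 1.48 inside and 2.65 outside. In absolute terms HP1b still covered more of the blocks than HP1a, so HP1a was higher there only as a share of its own total. MCF10A is known to carry additional copies of distal segments of these chromosomes. Copy number was not measured in these lists, and its part in the blocks was not tested.

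**Figure D3:**
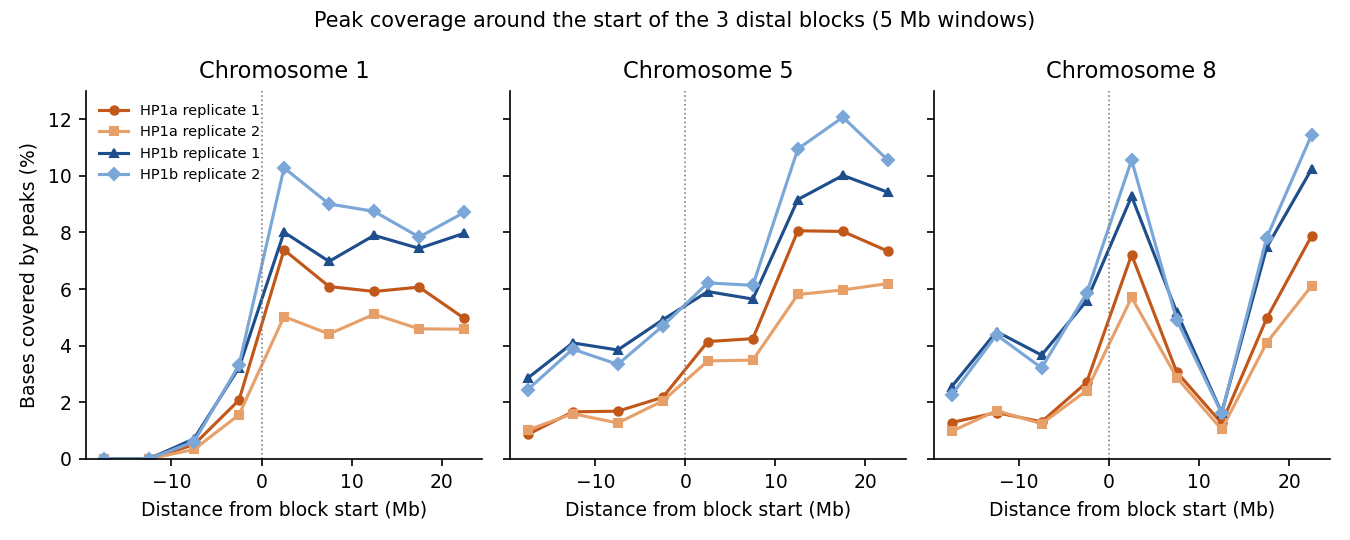
Bases covered by peaks (%) in 5 Mb windows from 20 Mb before to 25 Mb after the start of each distal block (dotted line), 1 line per wild-type library. In the first window of the chromosome 1 block the libraries reach 7.38 and 5.03% (HP1a) and 8.01 and 10.3% (HP1b). In the chromosome 8 block coverage falls to 1.26 and 1.04% and 1.63 and 1.61% at 10 to 15 Mb. No peak lies in the windows farthest before the chromosome 1 block, which were not checked for gaps in the assembly.

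The HP1a excess in the blocks was largest among weak peaks. Among peaks with a −log10 p under 3, the blocks held 41.2 and 37.7% of HP1a peaks and 8.62 and 15.3% of HP1b peaks. That band is a small part of the HP1a lists (4019 and 2926 peaks). From 3 to 4 they held 18.4 and 17.2% against 11.4 and 10.8%. Among peaks of 6 and over the libraries overlapped, 13.4 and 14.9% in HP1a and 17.4 and 13.7% in HP1b. Over all peak bases the blocks held 22 and 20.1% of HP1a and 12.2 and 13.9% of HP1b. With only peaks of 4 and over these shares were 18.0 and 17.1% against 16.7 and 15.1%, close together though not overlapping (exact permutation p 0.333).

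Outside the blocks, chromosomes 19 and 16 kept a higher HP1b share. Rescaled to the bases outside the blocks, 2 of 22 autosomes (9.09%) passed with HP1b higher: chromosome 19 at 0.29 ± 0.03 and chromosome 16 at 0.21 ± 0.02 (log2 ± SE, limma adjusted p 0.00475 for both). Another 2 (9.09%) passed with HP1a higher, chromosomes 2 and 3, by small amounts (-0.09 ± 0.02 each, limma adjusted p 0.0352 and 0.0389). Chromosomes 1, 5 and 8 were then at -0.08, 0.00 and -0.03, none past the threshold, and chromosome 22 was at 0.20 ± 0.07 (limma adjusted p 0.119). With peaks of 4 and over, chromosome 19 was the single autosome of 22 that passed, at 0.46, and at equal peak number it was at 0.74. It passed with HP1b higher in each of the 8 alternatives run on chromosome shares.

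**Figure D4:**
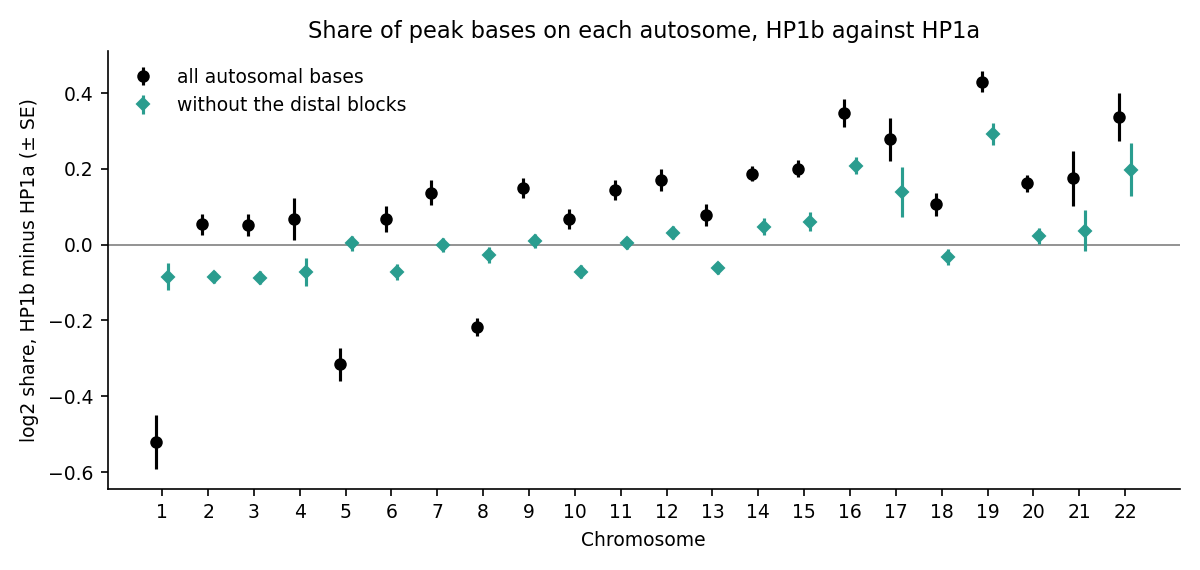
Log2 share of peak bases, HP1b minus HP1a, for each autosome (± SE, 2 libraries a protein), over all autosomal bases (circles) and over the bases outside the distal blocks (diamonds). Chromosome 19 stands highest in both (0.43 and 0.29), and chromosomes 1, 5 and 8 move from -0.52, -0.32 and -0.22 to near 0.

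On chromosome 19 the larger HP1b share was not limited to bins with zinc finger genes. The chromosome has 57 bins of 1 Mb with peaks, and HP1b covered more of them than HP1a in proportion to its total in 55. In the 21 bins where at least 3 zinc finger genes start, HP1a covered 6.11 and 5.54% and HP1b 18.6 and 18.8%, a ratio of 3.21. In the 23 bins with no zinc finger gene, HP1a covered 2.15 and 1.88% and HP1b 6.04 and 6.66%, a ratio of 3.16. Both proteins thus covered the zinc finger bins more densely, and the ratio between the proteins was close in both kinds of bin. The ratio was 3.18 up to 26 Mb and 3.26 beyond it. On other autosomes outside the blocks it was 2.93 in the 19 bins with at least 3 zinc finger genes and 2.61 in the 2326 bins with none. This split was made after the data were seen and was not tested.

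Across the genome, 115 of 2737 bins (4.2%) had a higher relative coverage of HP1b and 154 (5.63%) of HP1a, at a limma adjusted p under 0.05. Relative coverage is the number of peak bases in a bin per Mb of all autosomal peak bases of the library. All 207 bins of the distal blocks had a negative log2 difference (median -0.57), and 145 of them passed. Outside the blocks 115 passed with HP1b higher and 9 with HP1a higher, and chromosome 19 gave 21 of the 115 and chromosome 16 gave 13. These calls were not kept when the blocks were left out, which changes the scaling, the bins fitted and the pseudocount together, and which of these matters was not tested. Fitted without them, 0 of 2530 bins (0%) passed with HP1b higher and 2 (0.0791%) with HP1a higher, while 336 had an unadjusted limma p under 0.05. The 2 are chromosome 13 from 95 to 96 Mb, where ABCC4, a drug and nucleotide exporter gene, and CLDN10, a tight junction gene, lie, and chromosome 22 from 11 to 12 Mb, with no protein-coding gene; they were named because the count is small. With only peaks of 4 and over, 0 bins passed in either direction (293 at an unadjusted p under 0.05), and with all 8 libraries in a single fit 0 passed (235 unadjusted). Leaving out a library gave 263 and 201 (HP1b and HP1a higher) without HP1a replicate 1, 248 and 192 without HP1a replicate 2, 16 and 30 without HP1b replicate 1, and 46 and 116 without HP1b replicate 2.

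The bins of largest difference show both patterns. Chromosome 1 from 245 to 246 Mb, with KIF26B (a kinesin gene) and SMYD3 (a methyltransferase gene), was covered to 12.8 and 9.88% by HP1a and to 10.4 and 12.2% by HP1b. Its log2 relative coverage was -1.13 ± 0.15 (limma adjusted p 0.000995), although the covered shares of both proteins overlapped. The other bins with the lowest values were also on chromosome 1, at 210, 216 and 176 Mb, with KCNH1, ESRRG and ASTN1. In the opposite direction, chromosome 11 from 21 to 22 Mb, inside NELL1, was covered to 0.971 and 1.14% by HP1a and to 8.84 and 5.83% by HP1b (1.02 ± 0.17, limma adjusted p 0.00205). The bins at 65 Mb of chromosome 16 with the cadherin gene CDH11 (0.92), at 25 Mb of chromosome 14 with STXBP6 (0.88) and at 48 Mb of chromosome 19 (0.87) followed. Without the distal blocks these 4 were at 0.94, 0.82, 0.78 and 0.80, with limma adjusted p of 0.0512, 0.0845, 0.0512 and 0.0512.

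In gene bodies with 1 kb on each side, no gene passed. Of 12525 genes fitted, 0 (0%) had a limma adjusted p under 0.05 in either direction, and the lowest adjusted p of the genes named was 0.365. At an unadjusted p under 0.05 there were 1094 genes (8.73%) with HP1b higher and 493 (3.94%) with HP1a higher. Fits that leave out 1 library passed some genes, most without HP1a replicate 1 (164 with HP1b higher and 71 with HP1a higher) and without HP1a replicate 2 (138 and 164). So the genes below are described by their values in each library, and none of their differences passed the main test. With the replicate block KIF26B passed (limma adjusted p 0.0292), and without scaling ZIM2, NELL1, MYO18B and NUBPL did (limma adjusted p 0.0402 each).

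Zinc finger genes on chromosome 19 were covered more densely by HP1b than any other gene list. C2H2 zinc finger genes encode DNA-binding proteins, many of which silence retroelements. The 258 on chromosome 19 were covered to 8.64 and 7.95% by HP1a and to 26.5 and 26.3% by HP1b, against 1.87 and 1.56% and 4.35 and 4.47% for all genes outside the distal blocks. The ratio of HP1b to HP1a was 3.18 for that list and 2.57 for all genes outside the blocks. Zinc finger genes elsewhere had a ratio of 3.17 outside the blocks. The median log2 relative coverage was 0.53 over 238 fitted genes on chromosome 19 and 0.34 over 231 elsewhere, beside 0.10 over all genes fitted, and both stayed above the median of all genes in the 14 alternatives that could move them. At an unadjusted limma p under 0.05, 36 of the 238 had HP1b higher and 1 had HP1a higher, beside 8.73 and 3.94% of all genes.

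Single zinc finger genes ranged widely. ZNF134 (chromosome 19), among the most covered of the list, had 47.2 and 44.2% of its body under HP1a peaks and 84.3 and 74.9% under HP1b peaks. ZNF416, its neighbour on the chromosome, had 35.7 and 27.3% against 72.8 and 54.9%. Relative to each library's total, these densely covered genes were not higher in HP1b (log2 -0.45 and -0.23). That measure has a ceiling here: the HP1b lists cover 2.40 times the bases of HP1a, and no body can be covered beyond its whole length. So a negative log2 in a densely covered gene does not show that HP1b favoured it less. The same limit holds for ZNF678 and ZNF7 below. ZFP14 was low in HP1a, at 3.16 and 2.16%, and high in HP1b, at 29.5 and 24.7%. ZIM2, an imprinted zinc finger gene, had 1.95 and 1.92% against 23 and 21.7% (11.5-fold), but with peaks of 4 and over its log2 relative coverage fell from 2.11 to 0.14. ZNF256 was listed at 0 in both HP1a libraries and had 30.4 and 61.6% in HP1b. ZFP14, ZIM2 and ZNF256 were chosen for a higher HP1b value, so their separation is a description. The 2 zinc finger genes of highest coverage on other chromosomes lie in the distal blocks: ZNF678 had 44.6 and 44.4% against 60.0 and 58.9% (1.34-fold), and ZNF7 had 73.3 and 40% against 72.2 and 77.2%, where the proteins overlap.

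Clustered protocadherin genes, which encode cell-surface proteins of neuronal identity, showed the opposite proportion. All 53 lie in the chromosome 5 block. They were covered to 9.49 and 5.23% by HP1a and to 9.45 and 10.9% by HP1b, a ratio of 1.38. Over the whole chromosome 5 block that ratio was 1.49. Peaks were counted for each gene body, so bodies that overlap share peaks and are not separate observations. The median log2 was -0.65 over 52 genes, of which 16 had HP1a higher and 0 HP1b higher at an unadjusted limma p under 0.05. Over all genes these shares were 3.94 and 8.73%, and in the distal blocks, which hold the whole list, 184 of 207 bins had such a p. The median was 0.76 below that of all genes, 0.11 below at equal peak number and 0.20 below with peaks of 4 and over. That direction is relative to each library's total: without scaling the list's median was 0.56, with HP1b higher, beside 1.02 for all genes. PCDHB11 had 40.8 and 2.89% under HP1a and 47.4 and 25.5% under HP1b, and PCDHB5 had 15.2 and 21.9% against 26.8 and 25.9%.

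**Figure D5:**
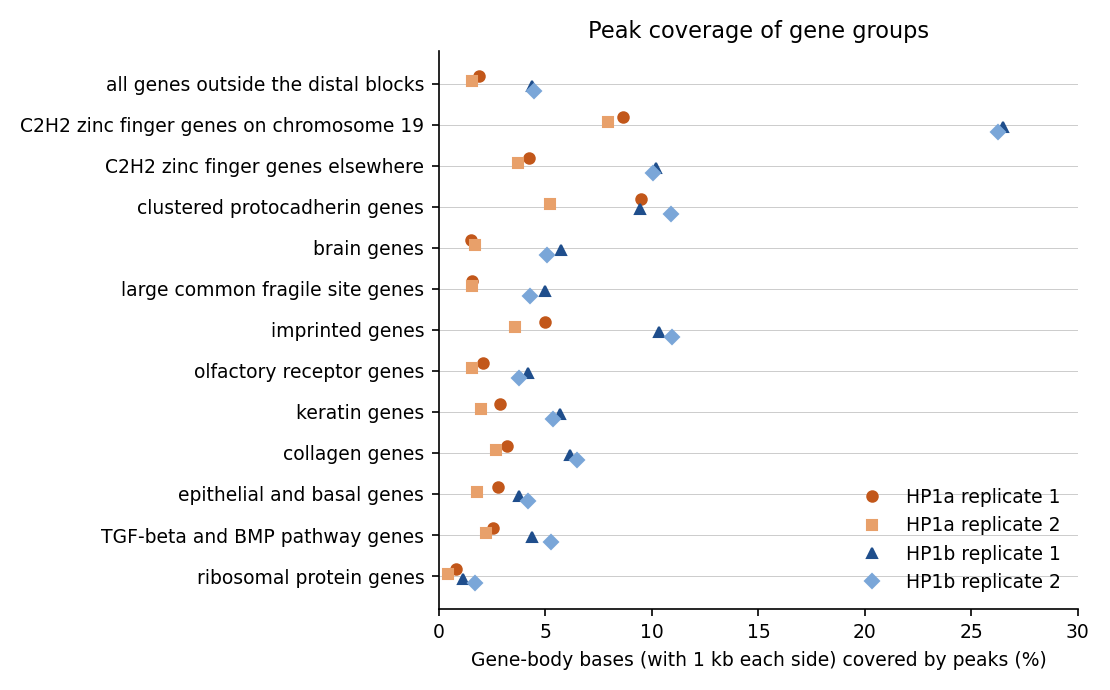
Share of gene-body bases (with 1 kb each side) covered by peaks (%) in each wild-type library for 12 gene lists and for all genes outside the distal blocks. Zinc finger genes of chromosome 19 lie farthest right for HP1b (26.5 and 26.3%), and the protocadherin genes are the list where HP1a replicate 1 (9.49%) reaches the HP1b libraries.

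Long genes of neurons had the highest ratio among the lists of over 10 fitted genes. Keratin-associated protein genes, with 8 fitted, had a higher one (4.56). The 23 brain genes were covered to 1.5 and 1.67% by HP1a and to 5.74 and 5.07% by HP1b, a ratio of 3.40. RBFOX1, a splicing regulator gene of 2474 kb, had 4.16 and 5.01% against 19.8 and 18.8% (4.21-fold), and DSCAM, an adhesion molecule gene, had 4.41 and 5.46% against 20.6 and 17.9%. AUTS2, from the list of large genes at common fragile sites, had 4.18 and 4.93% against 18.0 and 17.3%, and that list as a whole had a ratio of 2.98. The base-weighted ratio is led by the longest genes: the median log2 was 0.17 for brain genes and 0.21 for fragile site genes, near the 0.10 of all genes, and its sign relative to all genes changed in 4 and 3 of 14 alternatives. NELL1, a long secreted-protein gene, had 1.04 and 1.45% against 9.17 and 7.85%, and MYO18B, a myosin gene, had 2.70 and 2.33% against 12.3 and 11.7%. NELL1 and MYO18B were chosen for a higher HP1b value.

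Epithelial and basal genes lay below all genes in relative HP1b coverage as a list, with members in both directions. Of the epithelial and basal list, 17 of 27 genes were fitted, with a median log2 of -0.52, which was 0.31 to 0.73 below that of all genes in the 14 alternatives that could move it. Without scaling the median was 0.47, with HP1b higher, beside 1.02 for all genes. In the distal blocks lie 4 of its 27 genes, and without the blocks the median was -0.55. In the main fit other lists were below all genes too, among them lamina (-0.85), mesenchymal (-0.23) and cohesin (-0.20) genes. The luminal breast list was above all genes, at 0.42 over 9 fitted genes, and kept that side in 11 of 14 alternatives. KRT14, a basal keratin gene, had 19.6 and 15.3% under HP1a and 23.7 and 31.2% under HP1b. PKP1, a desmosome gene in the chromosome 1 block, had 15.8 and 14.2% against 22.4 and 32.1%. KRT5, KRT17 and ITGB4 were listed at 0 in all 4 libraries, as were the luminal keratin gene KRT18 and the mesenchymal gene VIM. EGFR, a growth factor receptor gene, had 1.32 and 1.25% against 0.217 and 0.983%, with HP1a above HP1b. Of the luminal factor genes, FOXA1 (6.11 and 6.03%) and GATA3 (2.26 and 1.04%) had peaks in HP1b alone. ESR1 had 2.87 and 3.13% against 5.03 and 4.67%, and ELF5 had 2.33 and 5.12% against 3.31 and 6.29%. The mesenchymal gene FN1 had 6.49 and 2.66% against 3.67 and 2.07%, where the proteins overlap. Occupancy is no measure of expression, and no marker list bears on the identity of the cells here.

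TGF-beta and BMP pathway genes had a ratio of 2.03 beside 2.31 for all genes. At an unadjusted limma p under 0.05, 3 of 32 fitted genes had HP1b higher and 2 had HP1a higher, near the shares over all genes (8.73 and 3.94%). The ligand gene TGFB2, in the chromosome 1 block, had 14.0 and 10.7% under HP1a and 14.7 and 15.7% under HP1b. SMAD6, an inhibitory SMAD gene, had 2.91 and 2.45% against 11.7 and 13.4% (4.68-fold). The imprinted genes were covered to 4.99 and 3.57% by HP1a and to 10.3 and 10.95% by HP1b. The most covered was NDN, at 0 and 32.9% against 42.4 and 22.5%, where the proteins overlap. SNRPN followed, at 13.7 and 12.7% against 35.9 and 32.0%. Collagen genes had a ratio of 2.14, and COL22A1 in the chromosome 8 block had 21.0 and 19.8% against 42.8 and 41.8%. Ribosomal protein genes were hardly covered, at 0.821 and 0.415% by HP1a and 1.12 and 1.72% by HP1b. Keratin, HOX and olfactory receptor genes had medians of 0.02, 0.19 and 0.11, close to that of all genes, and the sign of each relative to all genes changed with the processing.

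The genes where HP1a was relatively highest were covered about equally by both proteins. KIF26B had 14.0 and 10.3% under HP1a and 10 and 10.9% under HP1b, and NID1, the gene of a basement membrane protein, had 20.1 and 18.2% against 20.4 and 19.8%. ASTN1 had 6.39 and 5.80% against 4.78 and 4.97%, and KCNH1, a potassium channel gene, had 5.05 and 5.08% against 4.75 and 4.47%. In both of these the HP1a libraries lay above the HP1b libraries in covered share itself. All of these lie in the chromosome 1 block, as does ESRRG. GALNTL6, a long gene on chromosome 4, is outside the blocks and had 1.21 and 1.24% against 1.13 and 1.13%, where genes outside the blocks were covered 2.57 times more by HP1b.

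Counted by presence of a peak, 6991 of 19126 genes (36.6%) were met in all 4 libraries, 1278 (6.68%) in both HP1b and no HP1a library, and 114 (0.596%) in both HP1a and no HP1b library. This count follows the list length: at equal peak number there were 308 genes of HP1b only and 558 of HP1a only. It follows gene length too, since among 5 equal groups by length 92.6% of the longest genes but 2.22% of the shortest were met in all 4 libraries. Among genes of at least 5 kb, those of HP1b alone with the highest coverage were ZNF256, NLRP10, ULBP3, a ligand of natural killer cells, the complement gene C1S and DHDH. Those of HP1a alone were GPR171, ALKAL2, CFAP68, C11orf71 and WDR55. GPR171, a G protein-coupled receptor gene, had 11.2 and 8.33% in HP1a, and NLRP10 had 18.1 and 20.5% in HP1b. No list had more than 3 genes of HP1a only. Olfactory receptor genes had 3 of 389 (0.771%) and zinc finger genes 0 of 542 (0%), beside 0.596% of all genes. With so low a share over all genes, counts this small do not set a list apart.

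At the genes of the HP1 proteins themselves peaks were few. CBX1 had 1.54 and 0% of its body under HP1a peaks and 1.89 and 6.55% under HP1b peaks. CBX5 had 1.13 and 0% against 0 and 1.31%, and CBX3 had a peak in HP1b replicate 1 alone (2.70%).

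Gene density set the proteins apart by a few points at most. Of 5 equal groups of bins by number of gene starts, the most gene-dense held 22.1 and 19.7% of HP1a peak bases and 20.8 and 22.4% of HP1b peak bases, and the most gene-poor held 11.4 and 13.1% against 13.6 and 12.6%, where the libraries overlap (exact permutation p 0.667 for both). The middle group held 22.1 and 22.5% against 21.7 and 21.6%, and the group next to the most gene-dense 24.6 and 23.7% against 22.7 and 23.4%, without overlap (exact permutation p 0.333 for both). At equal peak number the libraries of the most gene-poor group did not overlap either, 11.8 and 13.1% against 15.5 and 14.5% (exact permutation p 0.333). The outermost 5 Mb of the autosomes held 7.54 and 6.97% against 7.66 and 8.12% (exact permutation p 0.333), a difference near the spread of replicates.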

How the data were processed

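The 4 wild-type libraries were grouped by their labels. Reads were processed with MACS3, Bowtie2, Trimmomatic and SAMtools on hg38, per the submitters' processing notes; their versions and settings, and any input library, are not stated in these notes. Each deposited list gives a broad peak's position, fold enrichment as a ratio, −log10 p and −log10 q, and a score, and hold no read counts. The fold ratio and −log10 p of a peak were made by the authors' peak caller and were used only to describe, rank or filter peaks; the deposited score was not used.

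Overlapping peaks of a list were merged and bases counted per feature with Python 3.11.15. Coverage per Mb of peak bases was fitted as log2(value + pseudocount, the 10th percentile of values above 0) with limma 3.58.1 (R 4.3.3; variance trend, except chromosome shares, which had no trend and no pseudocount), Benjamini-Hochberg threshold 0.05, for features with a peak in at least 2 of 4 libraries, and checked on simulated data. Fold differences understate change in sparsely covered features. Gene bounds and promoters came from RefSeq (GRCh38.p14).

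Named genes were CBX1, CBX3 and CBX5; 6 genes in each direction by moderated t with peaks in all 4 libraries; 5 genes of each protein only; up to 2 genes a list by coverage; 4 bins in each direction; and 3 regions a class. Other lists fitted were keratin-associated protein, histone, potassium channel, HP1 and heterochromatin, lamina, cohesin, mesenchymal, interferon, luminal and liver genes. Comparison, lists and rule were chosen with earlier results of these data known. Alignment of the HP1 proteins was planned and not done.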

Additional observations from a re-analysis of the deposited data

Results flagged for a closer look

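Peaks outside the autosomes entered no comparison. On chromosome X the lists held 6656 and 6219 peaks of HP1a and 14448 and 13324 peaks of HP1b. On a patch contig of chromosome 8 they held 217 and 172 peaks of HP1a and 402 and 403 of HP1b. Both are signals in data that the comparisons left out, and no control library was available to set them against.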

How the results depend on the processing

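Read depth is unknown; no counting error was set, and list length stood in for depth. The ratios of covered bases and median width, and the differences in the most gene-poor group of bins, the outermost 5 Mb and the promoter windows, kept their direction in every alternative run for them. For the rest, where a value moved, the cause was not tested unless the alternative itself sets it.

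With only peaks of a −log10 p of at least 4, the ratio of peak numbers turned to 0.878, 10.2% of HP1a and 11% of HP1b peaks met the other protein, and 19.2% of HP1a and 16.6% of HP1b regions were met by both libraries of the other. Then 0 bins passed in either direction (limma, 293 at an unadjusted p under 0.05), as did 1 autosome with HP1b higher and 0 with HP1a higher. There were 2069 genes with a peak in all 4 libraries, 243 of HP1b only and 486 of HP1a only, and the bin at 48 Mb of chromosome 19 turned to -0.28. At equal peak number, 21.3% of HP1a and 20.5% of HP1b peaks met the other protein, as did 26% of HP1a and 22.6% of HP1b regions. Genes of HP1b only numbered 308 and of HP1a only 558, and the difference in the most gene-dense group of bins turned to -0.579 points from 0.650. An overlap of at least 50% of the peak left 23.7% of HP1a and 8.53% of HP1b peaks met.

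Without scaling, 2623 bins and 72 genes passed with HP1b higher and 0 bins with HP1a higher (limma). There the chromosome 1 bins at 245, 210 and 176 Mb turned to 0.00517, 0.0483 and 0.0133, ESRRG to 0.0944 and NID1 to 0.0719. All 8 libraries in a single fit passed 0 bins in both directions (limma, 235 unadjusted), and bins of 250 kb passed 0 and 9 (HP1b and HP1a higher; limma, 1477 unadjusted). Without the last 40 Mb of chromosomes 1, 5 and 8 and chromosome 20 there were 21 and 49 bins. Without the distal blocks, chosen after seeing the data, there were 0 and 2 bins (limma, 336 unadjusted) and 2 autosomes with HP1b higher, and chromosome 5 turned to 0.00349. Then 33.3% of HP1a and 15.9% of HP1b peaks, and 40.4% of HP1a and 12.5% of HP1b regions, were met.

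Leaving out each library in turn gave 16 to 263 bins and 1 to 164 genes with HP1b higher, 30 to 201 bins and 1 to 164 genes with HP1a higher, and 4 to 13 autosomes with HP1b higher. Genes of HP1b only ranged from 2126 to 2763 and of HP1a only from 305 to 596. Regions met ranged from 18.1 to 61.0% for HP1a and from 5.98 to 33.7% for HP1b, since 1 library replaces a pair, and the gene-dense difference ranged from -0.536 to 1.84 points (turned to -0.536 without HP1a replicate 2 and to -0.147 without HP1b replicate 2). A lone library was assumed to vary like the other protein's.

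The labels give replicate numbers and do not say whether same-numbered libraries were paired. Deviations of same-numbered libraries correlated at -0.20 in bins and -0.01 in genes, which cannot settle it. With the replicate block, 101 and 126 bins and 0 and 1 genes passed (HP1b and HP1a higher), with 8 and 3 autosomes. The crossed pairing, added after seeing the data, gave 228 and 193 bins and 11 and 51 genes. The planned alignment of the HP1 proteins was not run.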
